A study of Drosophila melanogaster with 12 samples.

Results

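Hub and cyst cell regulators are 10 genes of the somatic niche and cyst lineage of the Drosophila testis: tj, zfh1, eya, chinmo, Egfr, puc, Socs36E, Stat92E, ptc and Fas3. They were chosen by gene symbol in the platform annotation, with the brightest probe set standing for each gene, and 8 of the 10 were measured, out of 11982 genes in all. No probe set carried the symbol Socs36E or Fas3 in that annotation, so these 2 genes were not analysed here. The study hybridised testis RNA of males aged 1 day to 12 Affymetrix arrays, 3 biological replicates for each of 4 genotypes. The group called bam was bam1/bamΔ86, aly was aly2/aly5P, sa was sa1/sa2 and the control yw was y,w. Each RNA sample came from a pool of about 200 testis pairs, so an array averages germ cells, somatic cyst cells, hub, sheath and any attached tissue. Loss of bam keeps germ cells dividing as spermatogonia, loss of aly or of sa arrests them as primary spermatocytes, and every stage is present in yw.

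The hub is a small cluster of somatic cells at the tip of the testis. It secretes the ligand Upd, which activates the JAK-STAT pathway in the germline stem cells and cyst stem cells around it. Cyst stem cells give rise to cyst cells, a pair of which encloses each group of dividing germ cells and later forms a sealed barrier around it. Signals between hub, cyst and germ cells run through the JAK-STAT, Hedgehog, EGFR, BMP and JNK pathways. Several of the genes below are also used outside the somatic lineage, Stat92E and chinmo in germline stem cells among others.

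Levels are given as the deposited linear intensity, written as mean ± SD over the 3 arrays of a genotype. Differences are in log2 of (intensity + 16), where the added 16 shrinks the change of a dim gene, and come from 1 limma fit over all 11982 genes and 12 arrays. A gene was called where the Benjamini-Hochberg adjusted p over all genes was under 0.05 and the change was at least 2-fold. Precision is limited by having 3 arrays in each genotype. Nothing in the labels says whether replicates came from separate fly cultures, so p-values measure the spread between these RNA samples. The median probe set of an array lay between 44.9 and 57.2. Against that median, zfh1 was dimmer in 9 of 12 arrays, tj and puc in 8, ptc in 5 and Egfr in 4, whereas eya, chinmo and Stat92E were brighter in all 12. The label names somatic cells, yet tj, a defining transcript of early cyst cells, lay between 29.4 and 68.9, near the bulk of all probe sets.

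**Figure D1:**
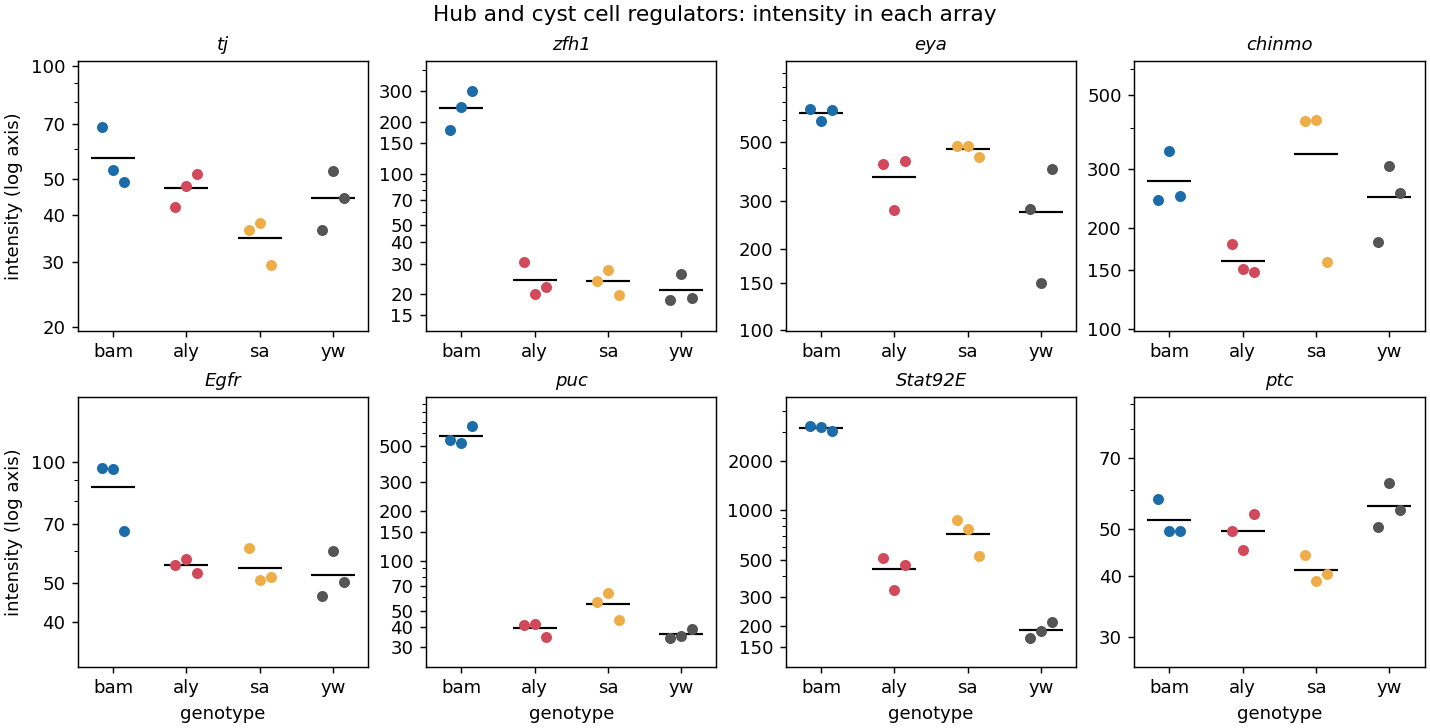
Intensity of the 8 measured genes in each array (log axis), by genotype; points are single arrays and bars are means of 3. In zfh1, eya, Egfr, puc and Stat92E every bam array lies above every array of the other genotypes, by a small margin in Egfr. The ranges of tj and ptc are narrow.

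The genes zfh1, puc and Stat92E changed in all 3 contrasts that include bam, and the other 5 measured genes gave 1 call there between them (eya). In sa against bam, 3 of 8 genes were lower (zfh1, puc and Stat92E) and 0 were higher, where limma called 20.7% of all genes lower and 20.5% higher. In aly against bam the count was again 3 lower and 0 higher, where 18.8% of all genes were lower and 16.3% higher. Against yw, 4 of 8 genes were higher in bam (the same 3 and eya) and 0 lower, where 34.3% of all genes were higher and 18.6% lower. That last split rested on the scaling: with arrays centred on ribosomal protein genes, 3 of 8 were higher (zfh1, puc and Stat92E) and 3 lower (tj, chinmo and ptc). With an unadjusted p under 0.05 in either direction, 6 of 8 genes differed in sa minus bam, 6 in aly minus bam and 5 in bam minus yw. The shares of all genes by that rule were 70%, 62.1% and 72.5%, so these 3 counts lay near the background. Both arrest mutants share the bam arrays as reference, and bam and the mutants share the yw arrays. Fewer cells of a type and less RNA per cell cannot be told apart in such bulk samples.

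Among tj, zfh1, eya and chinmo, which act in the nucleus, zfh1 had the widest separation. The gene encodes a zinc finger and homeodomain repressor that keeps cyst stem cells in the stem cell state. Its intensity was 179, 244 and 299.7 in the bam arrays, 30.7, 20 and 21.9 in aly, 23.8, 27.6 and 19.7 in sa, and 18.3, 26.1 and 19 in yw. All 3 bam arrays stood apart, and the other 9 arrays overlapped one another. The difference from bam was -2.67 ± 0.17 (SE) in sa (6.37-fold lower, limma adjusted p = 7.14e-08). In aly it was -2.66 (6.31-fold lower, adjusted p = 1.04e-07), and bam exceeded yw by 2.77 (6.81-fold, adjusted p = 3.01e-08). The 9 arrays outside bam were dim, and the size of these folds depended on the pseudocount. With a pseudocount of 1 or 64 in place of 16, the difference was -3.27 or -1.78 in sa, -3.26 or -1.77 in aly, and 3.43 or 1.82 in bam minus yw. Between aly, sa and yw no step was called, and the 95% interval of aly minus sa ran over both signs (adjusted p = 0.959).

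The large Maf factor tj, which marks cyst stem cells and early cyst cells, was at 68.9, 52.7 and 49.1 in bam, 41.9, 47.8 and 51.6 in aly, 36.4, 38 and 29.4 in sa, and 36.4, 52.4 and 44.4 in yw. Only the bam and sa arrays, and the aly and sa arrays, did not overlap. The difference of sa from bam was -0.52 ± 0.13 (SE; limma adjusted p = 0.00393), short of the fold minimum and so not called. Neighbours in the order bam, aly, yw and sa did not differ beyond their spread by this test (adjusted p = 0.216, 0.679 and 0.113). The difference of aly from sa was 0.32 (limma adjusted p = 0.0588), also not called.

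The coactivator phosphatase eya, which marks cyst cells that have left the stem cell state, was at 663, 597 and 655 in bam, 411, 278 and 422 in aly, 482, 483 and 440.1 in sa, and 281, 149 and 395 in yw. Every bam array was brighter than every other array, and yw spread the most. It was higher in bam than in yw by 1.26 ± 0.27 (SE; 2.40-fold, limma adjusted p = 0.00121). That call was lost without yw replicate 2, the array at 149 (0.91), and with array weights (0.83), and with arrays centred on their ribosomal protein genes the difference turned to -0.21. Differences of aly from bam (-0.78, adjusted p = 0.0271) and of sa from yw (0.83, adjusted p = 0.0184) passed the adjusted p but not the fold minimum, and the latter was called without yw replicate 3 (1.13).

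The BTB zinc finger gene chinmo, a JAK-STAT target that cyst stem cells need for self-renewal, was covered by 3 probe sets that disagreed. The brightest was at 243, 339.6 and 249.8 in bam, 180, 151 and 149 in aly, 417, 421 and 159 in sa, and 183, 307 and 254 in yw. In sa, replicate 3 lay far below the other 2 arrays and within the range of the aly arrays. No contrast of this probe set was called, with the largest difference between aly and sa (-0.87 ± 0.32 SE, limma adjusted p = 0.0387), which was called without sa replicate 3 (-1.31) and with array weights (-1.22).

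The second chinmo probe set was at 333, 436 and 655 in bam, 122, 101 and 105.4 in aly, 245, 215 and 93.4 in sa, and 149.8, 191 and 230.3 in yw. All 3 bam arrays were above all other arrays. In the limma fit of every probe set it was lower than bam in sa (-1.34, adjusted p = 0.00445) and aly (-1.92, adjusted p = 4.27e-04), and higher in bam than in yw (1.22, adjusted p = 0.00695). The sa contrast dropped to -0.95 without sa replicate 3 and the yw contrast to 0.96 without bam replicate 3, both no longer called, and the yw contrast was -0.26 with ribosomal centring. The third probe set stayed between 14.5 and 19.4 in all arrays. Which transcripts each probe set detects is not given in the sources used here, so the direction of chinmo is uncertain.

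**Figure D2:**
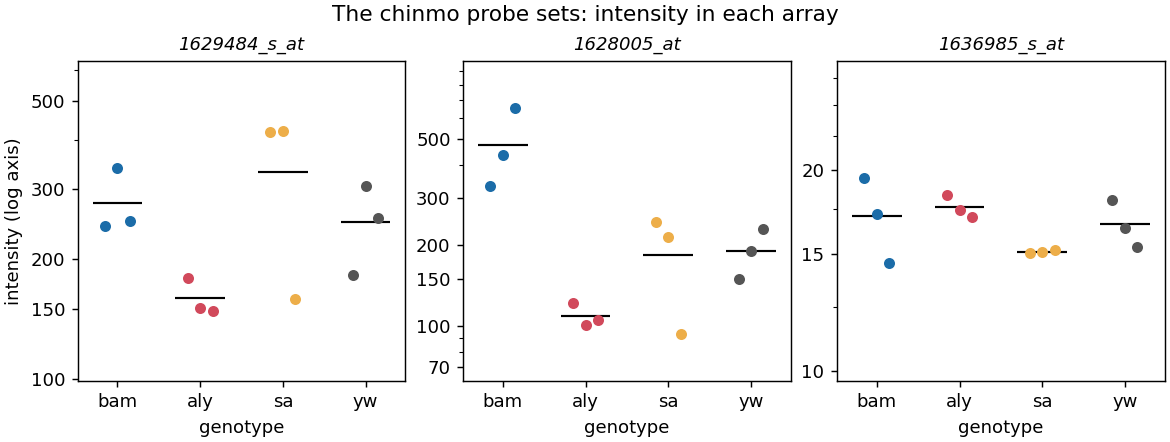
Intensity of the 3 chinmo probe sets in each array (log axis), by genotype; points are arrays and bars are means of 3. The middle panel has all bam arrays on top (333 to 655), the left panel does not (243 to 339.6), and sa replicate 3 is the lowest sa array in both.

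Of the JAK-STAT genes, Stat92E, the single STAT transcription factor of the fly, had the largest range of the 8 genes. It was at 3239, 3212 and 3041 in bam, 517, 331 and 470.4 in aly, 872, 774 and 527 in sa, and 169.8, 185 and 211 in yw. The order was bam, sa, aly and yw, and the arrays of no pair of genotypes overlapped. Bam exceeded yw by 3.96 ± 0.19 (SE; 15.6-fold, limma adjusted p = 3.28e-09). The difference from bam was -2.13 in sa (4.38-fold lower, adjusted p = 1.34e-06) and -2.83 in aly (7.10-fold lower, adjusted p = 1.58e-07). Both arrest mutants remained above yw, sa by 1.83 (3.56-fold, adjusted p = 5.80e-06) and aly by 1.14 (2.20-fold, adjusted p = 2.41e-04). Those last values depended on scaling: with ribosomal centring they were 0.60 and -0.045, neither called, and the aly value was also not called with quantile normalization (0.91) or a pseudocount of 64 (0.98). The step between sa and aly (-0.69, adjusted p = 0.0104) was short of the fold minimum.

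The phosphatase gene puc, which is induced by JNK signalling and dampens it, was at 545, 516 and 657 in bam, 41, 41.6 and 34.4 in aly, 56.3, 63.6 and 43.7 in sa, and 34.2, 34.9 and 38.5 in yw. The bam arrays stood apart from all 9 others, and the sa arrays lay above all aly and yw arrays. The difference was -3.06 ± 0.12 (SE) in sa (8.36-fold lower, limma adjusted p = 1.03e-09) and -3.42 in aly (10.7-fold lower, adjusted p = 7.26e-10). Bam exceeded yw by 3.50 (11.3-fold, adjusted p = 1.65e-10). These sizes too moved with the pseudocount, which at 1 or 64 gave -3.38 or -2.42 in sa, -3.84 or -2.62 in aly, and 3.95 or 2.67 in bam minus yw. The smaller differences of sa from yw (0.43, adjusted p = 0.00864) and of aly from sa (-0.35, adjusted p = 0.0315) were under 2-fold and not called.

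The growth factor receptor Egfr, through which cyst cells read the germ cell signal Spitz, was at 96.4, 95.7 and 67.5 in bam, 55.4, 57.5 and 53 in aly, 61.1, 51 and 51.7 in sa, and 46.5, 60.2 and 50.3 in yw. All bam arrays lay above the rest, by a small margin for replicate 3. Bam differed from sa (-0.53 ± 0.12 SE, limma adjusted p = 0.00267), aly (-0.51, adjusted p = 0.00379) and yw (0.58, adjusted p = 0.00127). Each of these was under 2-fold and not called, and aly, sa and yw were not separated (adjusted p = 0.68 to 0.92).

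The Hedgehog receptor ptc, itself a target of the pathway, was at 57.6, 49.5 and 49.5 in bam, 49.4, 45.2 and 53.7 in aly, 44.3, 39.1 and 40.4 in sa, and 50.4, 62.1 and 54.6 in yw. Only sa stood lower, with every sa array under every array of the other genotypes. The largest difference, sa minus yw, was -0.32 ± 0.09 (SE; limma adjusted p = 0.00777) with a 95% interval of -0.52 to -0.13, inside the fold minimum. For bam minus yw the interval was -0.27 to 0.13.

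**Figure D3:**
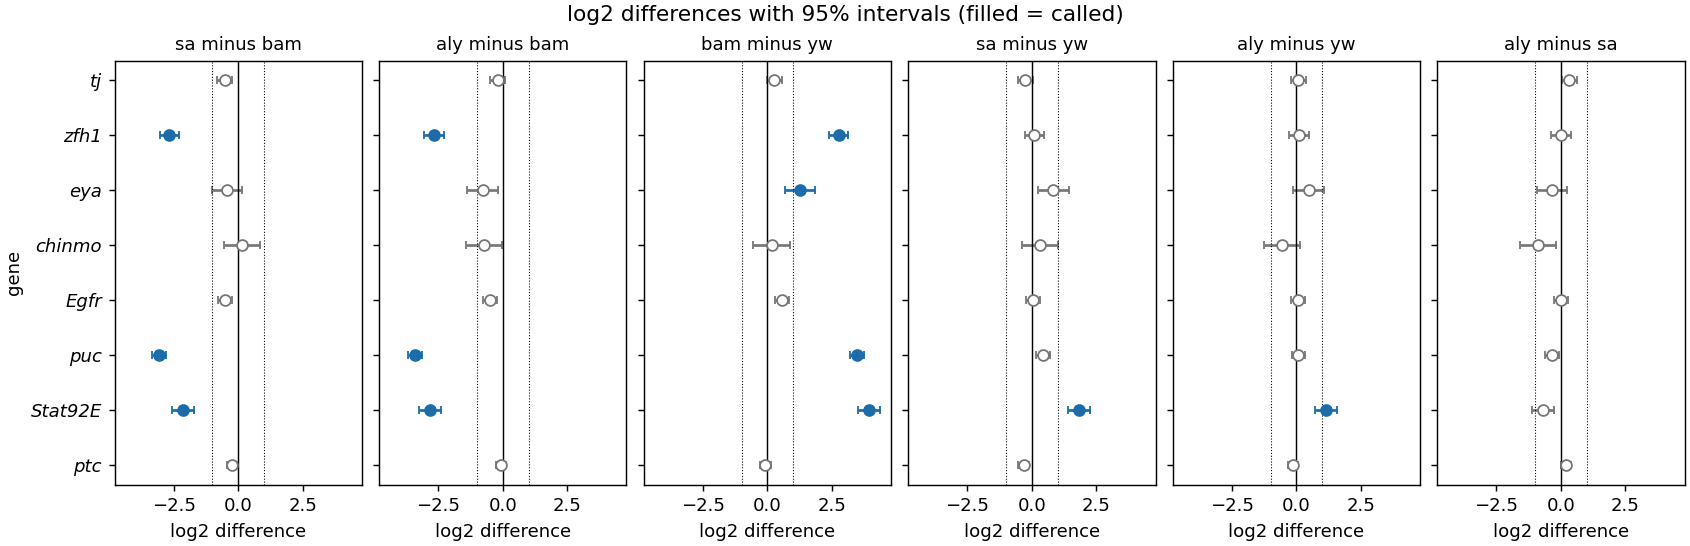
Log2 differences of the 8 genes in 6 contrasts, with 95% intervals; filled points were called and dotted lines mark a 2-fold change. The called points are zfh1, puc and Stat92E in the contrasts with bam, eya in bam minus yw, and Stat92E in both arrest mutants minus yw.

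Contrasts without bam gave few calls. In sa against yw, 1 of 8 genes was higher (Stat92E) and 0 lower, where 23.9% of all genes were higher and 12.9% lower. In aly against yw, Stat92E was again the 1 gene higher, where 28.2% were higher and 15.1% lower. Between aly and sa, 0 of 8 genes were called by limma, where 7.9% of all genes were higher in aly and 11.9% lower. At an unadjusted p under 0.05, 4 of 8 differed, beside 58.7% of all genes by that rule. Median differences of the 8 genes were -0.53 for sa minus bam, -0.75 for aly minus bam and 0.92 for bam minus yw, beside -0.09, 0.04 and 0.18 over all genes. They were 0.21 for sa minus yw, 0.08 for aly minus yw and -0.17 for aly minus sa, beside 0.09, 0.15 and 0.09.

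How arrays are scaled moves these baselines. Centring on 34 ribosomal protein genes turned the all-gene median to -1.29 in bam minus yw, -1.14 in sa minus yw and -1.03 in aly minus yw. The calls over all genes went from 4110 higher and 2223 lower to 1261 and 6668 in bam minus yw, from 2863 and 1551 to 385 and 6608 in sa minus yw, and from 3384 and 1806 to 1159 and 6228 in aly minus yw. With it, 4 of the 8 genes were lower than yw in sa, 6 in aly and 3 in bam, where the other 3 called were higher. In bam minus yw the 3 lower values were -1.20 for tj, -1.30 for chinmo and -1.54 for ptc. Its medians were 0.16 in sa minus bam and 0.33 in aly minus bam. When each array was centred on its own median, the all-gene medians were -0.30 in sa minus bam, 0.31 in aly minus bam, -0.31 in sa minus yw and 0.58 in aly minus sa. Calls in aly minus bam went from 1954 higher and 2255 lower to 2422 and 1826 with median centring and 2469 and 1803 with ribosomal centring. Sa minus yw gave 1792 and 2023 with median centring, and aly minus sa went from 947 and 1430 to 1334 and 1266 with quantile normalization and 2408 and 1041 with median centring. The calls of zfh1, puc and Stat92E in the 3 contrasts with bam were made in each of 27 alternatives, and in bam minus yw the smallest values were 1.30 for zfh1, 2.03 for puc and 2.49 for Stat92E.

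Replicate arrays did not deviate evenly. In sa, replicate 3 was the lowest array for 6 of 8 genes, with a median of -0.23 from the other sa arrays, and in yw replicate 1 was the lowest for 7 of 8 (-0.17). The cyst lineage list described next was also lower in sa replicate 3, at a summed intensity of 2883 against 4544 and 4214. Most of that sum in sa was 1 gene, da (2982 ± 743).

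Other genes of the same cells and pathways were read from fixed lists, without the 10 genes above. The list counts stand beside 20.7% of all genes lower and 20.5% higher in sa minus bam, and 18.8% and 16.3% in aly minus bam. In bam minus yw 34.3% of all genes were higher and 18.6% lower. Of the cyst lineage list, 7 of 8 genes were measured. Of these, 3 were lower than bam in sa, 4 lower in aly and 5 higher in bam than yw. The sa and aly counts were 4 and 4 with quantile normalization, and 4 and 3 with median centring. Not all moved alike, as 3 genes named with their values known show. The gene so differed by 0.88 in sa minus bam and -0.83 in bam minus yw, and da by 0.69 in sa minus bam. Each of these was under 2-fold and not called, and mid was dim (13.3 in bam). Summed intensities of the list overlapped between bam (4051 to 4772.5) and sa (2883 to 4544). Most of the sa sum was da, at 2982 ± 743 in sa and 1810 ± 244 in bam. The mean log2 value over the list, in which each gene counts alike, did not overlap (8.21 to 8.41 in bam, 7.24 to 7.73 in sa). The HLH antagonist gene emc was at 905 ± 139 in bam, 135 ± 35.5 in aly, 257 ± 85 in sa and 92.8 ± 16.2 in yw. Innexin gene Inx2, whose gap junctions couple cyst cells to germ cells, was at 989 ± 52.5 in bam and differed from bam by -2.57 in sa and -2.87 in aly. Doublesex, dsx, the sex determination factor of the somatic gonad, differed from bam by -1.55 and -1.79 in the same order, and Sox100B, a factor of the male gonad, was 2.10 higher in bam than in yw. With ribosomal centring the bam minus yw values of dsx (0.34) and Sox100B (0.63) were not called, and the list had 2 higher and 2 lower. The aly difference of Sox100B from bam (-1.20) was not called with quantile normalization (-0.87), median centring (-0.93) or ribosomal centring (-0.91).

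Septate junction genes, which build the barrier of the cyst cells and of other epithelia, moved in 1 direction. Of 11 measured, 7 were lower than bam in sa, 10 lower in aly and 11 higher in bam than yw (5 with ribosomal centring), with 0 in the other direction. Their median differences were -1.43, -2.22 and 2.38. The sa count depended on scaling, with 10 lower under quantile normalization, 9 under median centring and 6 under ribosomal centring. Leaving out each array in turn gave 6 to 9 lower in sa. The polarity gene scrib was at 863 ± 76.6 in bam, 20.8 ± 4.73 in aly, 28.2 ± 3.77 in sa and 19.4 ± 1.65 in yw (sa minus bam -4.31, limma adjusted p = 2.96e-11). The polarity and junction genes l(2)gl (-3.22 and -3.89), dlg1 (-2.52 and -3.18) and cora (-2.03 and -2.22) fell from bam in sa and aly. These genes also act in germ cells and other tissues.

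Hub genes showed no common direction. Of 9 measured, 2 were higher and 3 lower than bam in sa, 2 lower in aly (1 with each of 3 other scalings), and 1 lower in bam than yw (7 lower with ribosomal centring). The adhesion genes shg (E-cadherin, 355 in sa against 146 in bam, a difference of 1.25) and CadN (N-cadherin, 1.01) were higher in sa, and esg (-1.14) and Imp (-1.04) lower. The CadN value was not called with quantile normalization (0.77) or median centring (0.80), nor those of esg (-0.89) and Imp (-0.79) with ribosomal centring. Without bam replicate 3 the count higher in sa was 0, and without yw replicate 3 the count higher in bam than yw was 2. In sa minus bam, quantile normalization or median centring left 1 higher, and ribosomal centring 1 lower. The hub ligand upd1, named here with its values known, was dim in every genotype, at 20.4 ± 1.46 in bam, 20.9 ± 0.59 in aly, 20.4 ± 2.53 in sa and 22.1 ± 2.44 in yw.

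JAK-STAT components had few calls in sa and aly, in both directions. Of 10 measured, 1 was higher and 2 lower than bam in sa, 1 higher and 3 lower in aly, and 5 higher in bam than yw (1 higher and 5 lower with ribosomal centring, 3 and 1 with median centring). Over all genes 20.5% were higher and 20.7% lower in sa minus bam, and 16.3% and 18.8% in aly minus bam. The sa and aly counts lay near these shares. Without bam replicate 2 the aly count was 2 lower, and without sa replicate 3 the sa count was 2 higher. The phosphatase gene Ptp61F, which removes activating phosphates from the kinase Hop and from Stat92E, rose from 899.8 ± 308 in bam to 4416 ± 168 in sa (2.33) and 4826 ± 323 in aly (2.45). The BTB repressor gene ken fell from 761 ± 73.6 to 191 ± 10.7 in sa (-1.90) and 35.8 ± 2.57 in aly (-3.90). Socs44A, of the same family as Socs36E, differed from bam by -1.42 in sa and -1.45 in aly, and Socs16D was 1.79 higher in sa than yw (0.57 and not called with ribosomal centring). The receptor gene dome, named with its values known, was at 933 ± 57.4 in bam, 493 ± 22 in aly, 937 ± 141 in sa and 365 ± 70.8 in yw.

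EGFR pathway genes were lower than bam in 10 of 16 cases in sa and 9 of 16 in aly, with 1 higher in each, and 12 were higher in bam than yw (5 higher and 2 lower with ribosomal centring). In aly, median or ribosomal centring left 6 lower. The gene S (Star), which chaperones the ligand Spitz, was at 472 ± 52.7 in bam, 24.6 ± 2.30 in aly, 38.1 ± 7.04 in sa and 20.7 ± 2.11 in yw. The adaptor drk differed from bam by -2.91 in sa and -3.66 in aly, and the scaffold cnk by -1.99 and -1.86. The adaptor dos was not called between bam and the arrest mutants (-0.68 and -0.70) but was 3.42 higher in bam than yw. The ligand gene spi, named with its values known, was at 2108 ± 204 in bam, 1041 ± 81.4 in aly, 937 ± 48.1 in sa and 541 ± 88.3 in yw.

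Hedgehog components were called lower than bam in 8 of 10 cases in sa and 7 of 10 in aly, with 1 and 0 higher. In bam minus yw, 9 of 10 were higher (5 with ribosomal centring). Their receptor and target ptc was not called in these contrasts in the main fit. It was nonetheless lower in sa than in bam, short of the fold minimum (-0.25, limma adjusted p = 0.0267), and the arrays did not overlap. The ptc probe set was under the array median in 5 of 12 arrays, and the pseudocount shrinks changes of dim genes. Whether the list and ptc differ was not tested. The kinesin-like scaffold cos was at 1754 ± 104.8 in bam, 277 ± 28.2 in aly, 209 ± 27 in sa and 53.1 ± 14.7 in yw. The transducer smo differed from bam by -2.64 in sa and -2.73 in aly. The coreceptor ihog differed by -2.30 and -1.59, and the transcription factor ci by -1.05 and -2.87, its sa value not called with ribosomal centring (-0.80). The ligand gene hh, named with its values known, was at 176 ± 23.8 in bam, 72.9 ± 14.9 in aly, 63.4 ± 4.61 in sa and 92.1 ± 33 in yw.

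JNK pathway genes other than puc were lower than bam in 6 of 9 cases in sa and 8 of 9 in aly, each with 1 higher, and 7 were higher in bam than yw (5 higher and 1 lower with ribosomal centring). Which mutant had more genes lower depended on scaling. The sa and aly counts were 8 and 7 with quantile normalization, 8 and 6 with median centring, and 5 and 6 with ribosomal centring. In sa and aly, the TNF ligand egr differed from bam by -2.68 and -2.13, its receptor wgn by -1.52 and -1.95, the kinase msn by -2.84 and -3.27, and the Fos gene kay by -2.21 and -2.75. The 1 higher gene was Jra, the Jun partner of Fos, at 430.1 ± 38.3 in bam, 2203 ± 255 in aly, 1993 ± 262 in sa and 501 ± 83 in yw, named with its values known. BMP pathway genes were lower than bam in 8 of 11 cases in both arrest mutants, and 10 were higher in bam than yw (6 higher and 1 lower with ribosomal centring). Among them, the receptor tkv differed from bam by -2.34 in sa and -1.52 in aly, the transcription factor Mad by -1.42 and -2.30, and shn, a cofactor of Mad, by -2.92 and -3.59. The receptor put was called lower in aly (-1.44), and its sa value of -0.72 was not called.

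Medians of the lists stood beside -0.09, 0.04 and 0.18 over all genes in sa minus bam, aly minus bam and bam minus yw. In that order they were -0.08, 0.02 and -0.06 for hub genes, -0.97, -1.20 and 1.81 for the cyst lineage, and -0.24, -0.43 and 0.62 for the JAK-STAT pathway. For the EGFR pathway they were -1.21, -1.10 and 2.14, for Hedgehog -1.32, -1.66 and 2.46, for JNK -1.39, -1.95 and 2.69, and for BMP -1.42, -1.49 and 2.88.

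**Figure D4:**
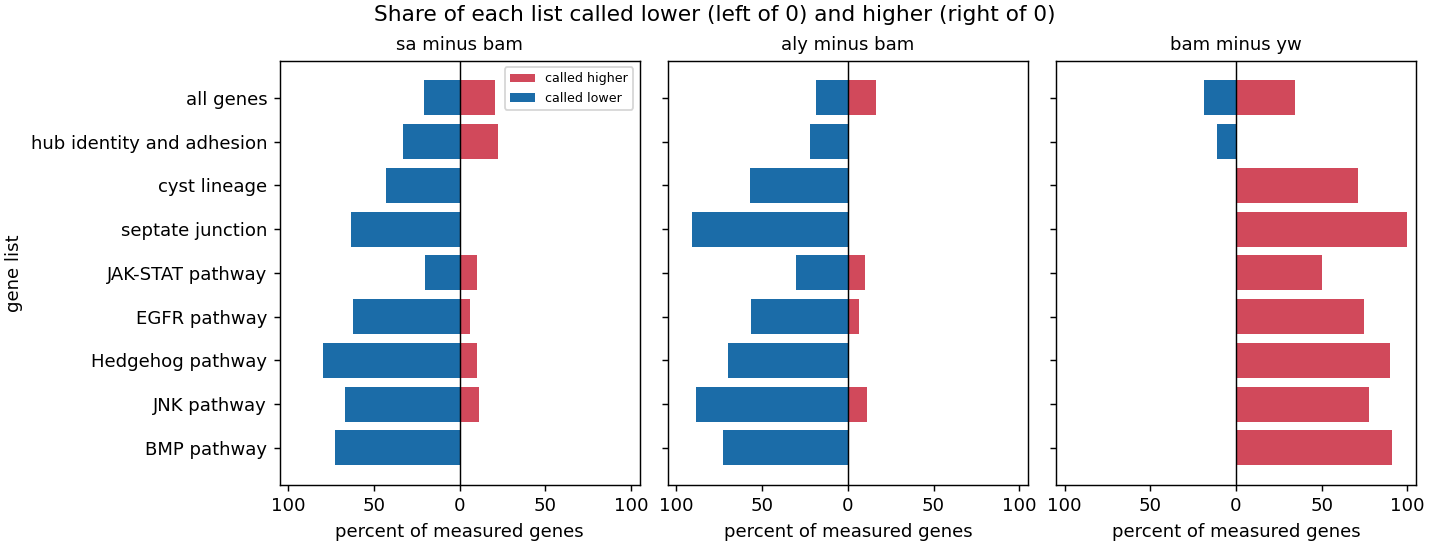
Percent of the measured genes of each list called lower (left) or higher (right) in 3 contrasts, with all genes on top. Septate junction genes reach 11 of 11 in bam minus yw, where 34.3% of all genes were higher, and the hub list has 0 of 9.

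Markers of sheath muscle and early germ cells moved with the same contrasts, and hemocyte markers less so. All 9 measured testis sheath muscle markers were lower than bam in both sa and aly and higher in bam than yw (3 with ribosomal centring), with summed intensities of 15894 to 18401 (bam), 2378 to 3549 (aly), 2457 to 3969 (sa) and 2892 to 4695 (yw). Of 7 early germ cell markers, 6 were lower in sa, 5 lower in aly and 6 higher in bam than yw, with sums of 12165 to 14236 (bam), 3309 to 3499 (aly), 2119 to 2377 (sa) and 1411 to 1734 (yw). Among those, nanos was at 4640 ± 558 in bam and 99.3 ± 30.6 in yw. The 7 markers also include bam, the gene mutated in the bam genotype. Of 7 hemocyte markers, 2 were lower in each arrest mutant, where 20.7% (sa) and 18.8% (aly) of all genes were lower. In bam minus yw 2 were higher, beside 34.3% of all genes. Sums were 1801 to 2176 (bam), 619 to 837 (aly), 644 to 742 (sa) and 396 to 434 (yw). Most of the bam sum was crq (1261 ± 151), while Hml was higher in aly than bam (0.79, not called). NimC1, eater and He were called in no contrast. These 5 genes are named with their values known. In sa against bam the hemocyte count was 1 without bam replicate 1 or with ribosomal centring, which also gave 1 higher and 3 lower in bam minus yw.

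Tissues that can come along in dissection varied between replicates. The 11 accessory gland markers summed to 22686 to 95793 (bam), 6268 to 9201 (aly), 10682 to 23627 (sa) and 12019 to 70931 (yw), with 2 lower than bam in sa, 10 lower in aly and 0 called in bam minus yw. The sa count was 6 with median centring. Without bam replicate 1 it was 0, without bam replicate 3 it was 9, and without yw replicate 2 the bam minus yw count was 8 higher. The 4 seminal vesicle and ejaculatory duct markers had 2 lower in each arrest mutant, 1 higher in bam than yw, and sums of 10441 to 22138 (bam), 3611 to 4478 (aly), 3376 to 3874 (sa) and 2980 to 14615 (yw). In aly 1 of them was lower without bam replicate 1 and 3 without yw replicate 2. In bam minus yw 2 were higher without bam replicate 3, and ribosomal centring gave 0 higher and 1 lower. The 3 fat body markers had 2 lower in sa, 3 lower in aly, and 1 higher and 1 lower in bam than yw, with sums of 983 to 2443 (bam), 222 to 394 (aly), 431 to 761 (sa) and 1854 to 3379 (yw). The 1 fat body marker higher in bam than yw (Fbp1, 1.08) was not called without bam replicate 3 or with quantile normalization (0.84), median centring (0.89) or ribosomal centring (-0.39). No marker of any list was at 0, the lowest value of the table being 9.35. Spermatocyte and spermatid markers ran the other way. Of 6, 6 were higher than bam in sa, 4 higher in aly and 6 lower in bam than yw. Their sums were 387 to 414 (bam), 20824 to 22293 (aly), 9776 to 11291 (sa) and 20221 to 22416 (yw). The sums of aly and yw were alike, yet in aly minus yw 3 of these markers were higher and 3 lower. Among the 6 is sa, the gene mutated in the sa genotype. The part of these other cells in the differences of zfh1, puc, Stat92E and eya was not tested.

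**Figure D5:**
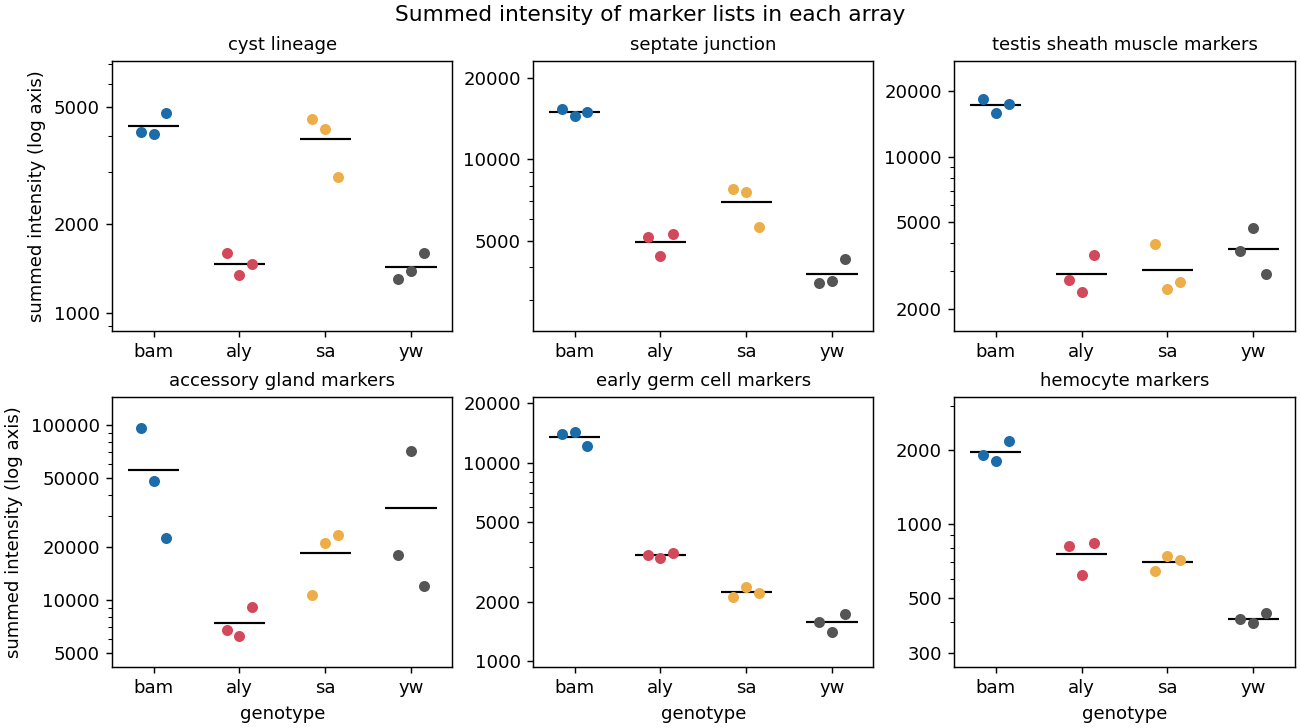
Summed intensity of 6 marker lists in each array (log axis), by genotype; points are arrays and bars are means of 3. Muscle, septate junction, early germ cell and hemocyte sums are highest in all bam arrays, and accessory gland sums spread within bam (22686 to 95793) and yw (12019 to 70931).

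For each gene, the 2 genes with the most similar pattern were found by the root mean square difference of gene-centred log2 values over the 12 arrays. Nearest to puc were sno, a nuclear cofactor of Notch signalling, at 0.08, and S, the EGFR pathway gene above, at 0.09, beside a spread of puc itself of 1.45. The nearest to zfh1 were unk, a zinc finger gene (0.14), and kuz, a metalloprotease that cleaves Notch (0.15), beside a spread of 1.18. Nearest to Stat92E were fra, the netrin receptor (0.21), and Csk, an inhibitor of Src kinases (0.23), beside 1.46. The gene fra was at 859 ± 51.5 in bam, 124 ± 27.2 in aly, 248 ± 50.2 in sa and 63.7 ± 12.9 in yw, the same order of genotypes as Stat92E.

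The other 5 genes varied less over the arrays. Nearest to eya were Inos, the inositol phosphate synthase (0.22), and Pomp, a proteasome assembly factor (0.23), beside a spread of 0.56. The nearest to chinmo were the histone chaperone gene Daxx and the GABA receptor gene GABA-B-R3 (both 0.21), beside 0.49. For Egfr they were Mur2B (0.08) and nkd (0.11) beside 0.27, for tj CG3457 (0.10) and CCHa1-R (0.11) beside 0.23, and for ptc CG14126 (0.06) and Ugt37A1 (0.07) beside 0.14. These last 6 genes were dim, with genotype means between 15.5 and 65.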

How the data were processed

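The series' design text says that the authors normalized the array signals with RMA. MAS5, RMA and limma are named, without versions, in the submitters' processing notes. The deposited values are intensities on a linear scale, 1 column per array. Which method made them is not given in the sources used here, and the background correction is therefore unknown. Here, log2(deposited intensity + 16) entered limma (version 3.58.1, in R 4.3.3), as 1 model of the 4 genotypes with eBayes and 6 contrasts, and p-values were adjusted over all genes within each contrast. Of 18952 probe sets, 183 controls were left out, and 13647 had 1 symbol, 402 several and 4720 none here; 13544 matched the RefSeq table of Release 6. Each gene was read from its brightest probe set by the mean over 12 arrays; of the 8 measured, chinmo alone had several. No intensity filter was applied. The 8 pathway and 7 marker lists held 149 genes, 128 of them measured. Genes named from a pathway list were the 4 with the widest range of genotype means (log2) among those called at least once, plus the 2 nearest profiles of each of the 8 genes; others are said to be named with their values known. The genes, lists and rules were chosen with earlier results of these data known. The fit was tested on simulated data. Alternatives are given in the closing section; a batch term for replicate 3 and single chinmo probe sets were added after seeing the data. Sequences were not analysed here. Plots used matplotlib 3.10.9.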

Additional observations from a re-analysis of the deposited data

How the results depend on the processing

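Over 27 alternatives, the counts of called genes stayed within 1.5 times except as follows. Without a fold minimum they were 6 in sa minus bam, 5 in aly minus bam, 4 in sa minus yw and 3 in aly minus sa. Most of the 11982 genes were also called by that rule. The all-gene calls were 3749 higher and 4355 lower in sa minus bam, and 3459 and 3614 in aly minus bam. They were 4896 and 2864 in sa minus yw, and 3600 and 2719 in aly minus sa. Ribosomal centring gave 4 in sa minus yw and 6 in aly minus yw, all lower, and in bam minus yw it changed the split from 4 higher and 0 lower to 3 and 3. Among the other alternatives, quantile normalization and a pseudocount of 64 each gave 0 in aly minus yw. Array weights gave 1 in aly minus sa. Leaving out each array in turn gave 1 to 2 in sa minus yw and 0 to 1 in aly minus sa. Of 1284 single-gene values, 1249 kept their direction and side of the threshold or were uncalled in both. Of the others, 5 lost a call, 20 gained one and 10 changed sign with a call in either fit. Sign changes of values uncalled in both fits are outside that count. An example is chinmo in sa minus bam, at 0.15 in the main fit and as low as -0.08 with 1 array left out. All 10 counted sign changes came with ribosomal centring. For tj these were -1.20 in bam minus yw and -1.11 in aly minus yw, for zfh1 -1.13 in sa minus yw and -1.07 in aly minus yw, and for Egfr -1.18 and -1.12 in the same contrasts. For eya (-0.21) and chinmo (-1.30) it was bam minus yw, and for puc (-1.10) and Stat92E (-0.045) aly minus yw. The all-gene medians under that scaling were -1.29 in bam minus yw, -1.14 in sa minus yw and -1.03 in aly minus yw. Replicate numbers did not pair the samples: 4 of 18 pairs with the same number correlated above 0.1 in their deviations (r from -0.415 to 0.481), and 3 of 12 arrays correlated best with their own number. With the replicate block the counts were 3, 3, 4, 1, 1 and 0 in sa minus bam, aly minus bam, bam minus yw, sa minus yw, aly minus yw and aly minus sa, as without it. Signal over background has no measure in the deposited table, which limits what can be read from the dim genes: zfh1 was under the array median in 9 of 12 arrays, puc and tj in 8, ptc in 5 and Egfr in 4.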
